A study of Mus musculus with 9 samples.

Results

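Transcripts of 8 myelin genes were followed through cells and free RNA of mouse brain tumors and control brains: Mbp, Mog, Mag, Mal, Mobp, Cnp, Cldn11 and Ermn. The genes were taken by symbol, and each matched 1 of the 32285 mouse genes of the count tables. On mm10 (GENCODE M21), Mobp lies on chromosome 9 from 120149707 to 120181484, Ermn on chromosome 2 from 58045113 to 58052864, Mal on chromosome 2 from 127633226 to 127656695 and Cnp on chromosome 11 from 100574904 to 100591729. Their unique molecular identifiers (UMIs), each of which marks 1 captured RNA molecule, were summed per mouse over every deposited barcode, over barcodes gated as a cell type by marker genes, and over the 3000 barcodes with the fewest UMIs, which stand here for free RNA. The study measured RNA in droplets from dissociated brain tissue. The tumor group held 5 mice with an EP ZFTA-RELA tumor (genotype NestinCreERT2;Fus1), in which Cre recombinase turns on a ZFTA-RELA fusion gene, and the control group held 4 mice (NestinCreERT2;TdT). All mice were 6 to 8 weeks old and all samples are labeled as brain. Both groups carry the NestinCreERT2 driver, which is active in neural stem cells and radial glia, the cells that give rise to neurons and glia, so a gated cell of a tumor sample may or may not carry the recombined allele. That was not tested.

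Myelin is the stacked membrane that oligodendrocytes wrap around axons. Mbp encodes myelin basic protein and Mobp another small basic protein, which lie on the cytoplasmic faces of the compacted membrane, and their messenger RNAs are known to be carried out of the cell body into the processes and translated near the sheath. Mog and Mag encode immunoglobulin-family proteins on the outermost and the innermost surface of the sheath. Mal encodes a small raft-associated proteolipid that sorts membrane proteins, and Cldn11 the claudin that forms the tight junctions between myelin layers. Cnp encodes a phosphodiesterase of the non-compacted cytoplasm that appears early in the lineage, and Ermn encodes ermin, a cytoskeletal protein of mature oligodendrocytes. Oligodendrocyte precursor cells (OPCs) become committed precursors and then myelinating cells. When tissue is dissociated, RNA and fragments of processes are released, and every droplet can take some of it up.

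The libraries differed in ways that touch every comparison. Controls held 75222 to 86516 deposited barcodes and 101057563 to 178074108 UMIs of mouse genes, and tumors 9001 to 26341 barcodes and 14967428 to 69391807 UMIs. The smallest deposited barcodes held 468 to 517 UMIs, so the free RNA barcodes, with a median of 559 to 1338 UMIs, were not empty. Their share of the deposited barcodes was 3.47% to 3.99% in controls and 11.4% to 33.3% in tumors. A cell type gate was passed by 2.37% to 4.63% of the free RNA barcodes in controls and by 4.00% to 22.2% in tumors, most in tumor replicate 3. Filtering kept 4026 to 6352 cells per control and 1720 to 5073 per tumor. Tumor replicates 1 to 5 had 20, 363, 12, 1152 and 670 UMIs of the fusion transcript and controls 0. Of 31246 kept barcodes of the 8 libraries with a complete barcode list, 111 occurred in more than 1 library, 1 to 8 for each of 28 pairs.

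The promoter windows of Mobp and Ermn are printed as an example of a gene not called and a gene called lower in free RNA of tumors, as given further on. Each window runs from 250 bases before to 50 after the start of the gene in RefSeq (GRCm38.p6). That of Mobp is at chr9:120149492-120149791 on the plus strand and that of Ermn at chr2:58052815-58053114 on the minus strand. Capitals mark the letters ACAAAG on either strand (CTTTGT on the printed one), the core of sites bound by SOX factors such as SOX10 of the oligodendrocyte lineage.
Mobp: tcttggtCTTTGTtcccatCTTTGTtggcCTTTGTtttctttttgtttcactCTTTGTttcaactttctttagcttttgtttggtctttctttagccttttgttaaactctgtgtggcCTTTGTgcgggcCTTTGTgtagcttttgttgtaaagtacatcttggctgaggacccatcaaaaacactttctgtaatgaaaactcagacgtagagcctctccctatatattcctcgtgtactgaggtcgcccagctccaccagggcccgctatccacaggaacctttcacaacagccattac
Ermn: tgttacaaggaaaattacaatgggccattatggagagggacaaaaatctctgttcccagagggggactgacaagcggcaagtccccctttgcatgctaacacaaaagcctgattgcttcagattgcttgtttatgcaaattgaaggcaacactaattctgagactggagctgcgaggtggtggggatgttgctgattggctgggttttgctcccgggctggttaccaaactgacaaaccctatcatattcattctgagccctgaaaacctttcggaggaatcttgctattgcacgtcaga
The Mobp window held 6 such matches and the Ermn window 0. Over all 32851 promoter windows of this length, 18.7% held at least 1, and 1 window had 6 or more. The window of Cnp held 1 match, as did 2 of the 3 windows of Mag, and those of Mal, Cldn11 and Mog 0. The E-box letters CAGCTG, present in 16.3% of all windows, were absent from these windows. The genes and motifs were picked with the results known, and a match is a description of letters and not a bound site.

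Over all barcodes of a library, the myelin genes did not pass the test between tumors and controls, and the tumors spread far more than the controls. Levels are in counts per 1000000 UMIs of mouse genes (CPM), and since each UMI counts 1 molecule, levels of different genes can be set side by side without a correction for length. Mbp was at 935, 1043, 1025 and 965 CPM in the controls and at 1579, 564, 3878, 218 and 419.5 CPM in tumor replicates 1 to 5. Ermn was at 114 to 144 CPM in the controls and at 69.7, 44.5, 39.9, 0.605 and 13.8 CPM in the tumors, and Mag at 101 to 126.2 CPM against 69.4, 36.1, 77.5, 6.25 and 27.0 CPM. For Mbp 2 tumors lay above all controls and 3 below, whereas for Ermn and Mag the groups did not overlap, with all tumors below all controls. How many of all genes show such a gap was not computed. Over kept cells only, the groups overlapped for both genes, with Mag at 65.0 to 89.7 CPM in controls and 155, 56.4, 129, 5.61 and 16.8 CPM in tumors, and Ermn at 67.6 to 95.5 CPM against 149.6, 68.9, 65.1, 0.321 and 10.2 CPM. By edgeR's quasi-likelihood test 0 of 8 genes were called, where 49.8% of all 19464 genes tested were called in either direction, 28.8% higher and 21% lower. At an unadjusted p under 0.05 there were 2 (Mag and Ermn), DESeq2 called 2 and limma voom 3. The log2 fold change was -1.43 ± 0.54 (SE) for Mag (edgeR adjusted p = 0.0511) and -1.99 ± 0.86 for Ermn (edgeR adjusted p = 0.0776). In such sums, fewer oligodendrocytes and less RNA per oligodendrocyte cannot be told apart.

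In free RNA, the 8 genes parted. Ermn, Mag, Mog, Mal and Cldn11 were lower in tumors, while the levels of Mbp and Mobp in tumors lay on both sides of the controls. Ermn was at 156, 140.4, 116 and 139 CPM in controls and at 35.9, 20.8, 30.3, 0.582 and 21.6 CPM in tumors. Its log2 fold change was -2.70 ± 0.58 (SE; edgeR adjusted p = 0.00487). Every tumor was below every control, and tumor replicate 4, with the least, had fewer UMIs of Ermn than the 3 counts set as the floor of a library.

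Mag and Mog, the surface proteins of the sheath, followed Ermn. Mag was at 96.5 to 126.5 CPM in the controls and at 43.3, 9.35, 48.1, 5.82 and 37.6 CPM in the tumors (log2 fold change -1.99 ± 0.51 (SE), edgeR adjusted p = 0.0111). Mog was at 39.4 to 51.5 CPM against 24.0, 5.72, 22.0, 7.56 and 11.6 CPM (-1.71 ± 0.38, edgeR adjusted p = 0.00554). The membrane proteins Mal and Cldn11 fell too. Mal was at 225, 241, 255 and 212 CPM in the controls and at 91.2, 49.9, 134, 19.8 and 95.2 CPM in the tumors (-1.64 ± 0.43, edgeR adjusted p = 0.0118). Cldn11 was at 72.2 to 80.4 CPM against 68.4, 24.9, 45.8, 20.9 and 22.7 CPM (-1.11 ± 0.35, edgeR adjusted p = 0.027). For these 4 genes, too, the groups did not overlap. The share of all genes without overlap was not computed, while 19.4% of all genes tested were called lower. The call of Cldn11 ended without any single control, without tumor replicate 2 and without tumor replicate 5 (edgeR adjusted p = 0.0559 to 0.0727), and the other 4 calls stood in every fit with 1 mouse left out.

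Mbp and Mobp, the genes of the compacted membrane, behaved otherwise. Mbp was at 940.4, 1103, 928 and 847 CPM in free RNA of the controls and at 1901, 1131, 10413, 500.2 and 790.1 CPM in that of the tumors. Mobp was at 366, 457, 387 and 311 CPM against 591, 279, 2502, 25.0 and 249 CPM. Tumor replicate 3 was far above all other mice for both genes, and tumor replicate 4 was lowest. The log2 fold changes were 1.55 ± 0.80 (SE; edgeR adjusted p = 0.138) for Mbp and 0.87 ± 0.91 (edgeR adjusted p = 0.454) for Mobp, and neither passed. Mbp was called without tumor replicate 4 (1.84, edgeR adjusted p = 0.047) and stood at 0.18 without tumor replicate 3 (edgeR adjusted p = 0.737), and without tumor replicate 3 the value of Mobp changed sign (-0.39). Cnp, the early gene of the lineage, was at 191 to 208 CPM against 108, 63.4, 221, 203 and 79.1 CPM, with the groups overlapping (-0.63 ± 0.33, edgeR adjusted p = 0.135). It was called lower without tumor replicate 3 (-0.88, edgeR adjusted p = 0.0354).

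Of the 8 genes, 5 were thus called lower and 0 higher in free RNA of tumors, where 19.4% of the 11835 genes tested were called lower, 25.7% higher and 45% in either direction. Their median log2 fold change was -1.37, against 0.06 over all genes tested. Among other markers, the summed level of neuron markers (10 genes) was 5731 to 6071 CPM in free RNA of the controls and 5410.4, 4726, 6533, 657 and 2479.8 CPM in that of the tumors, so that tumor replicate 3 was above all controls and the other 4 tumors below. The part of the make-up of the tissue in these differences was not tested.

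**Figure D1:**
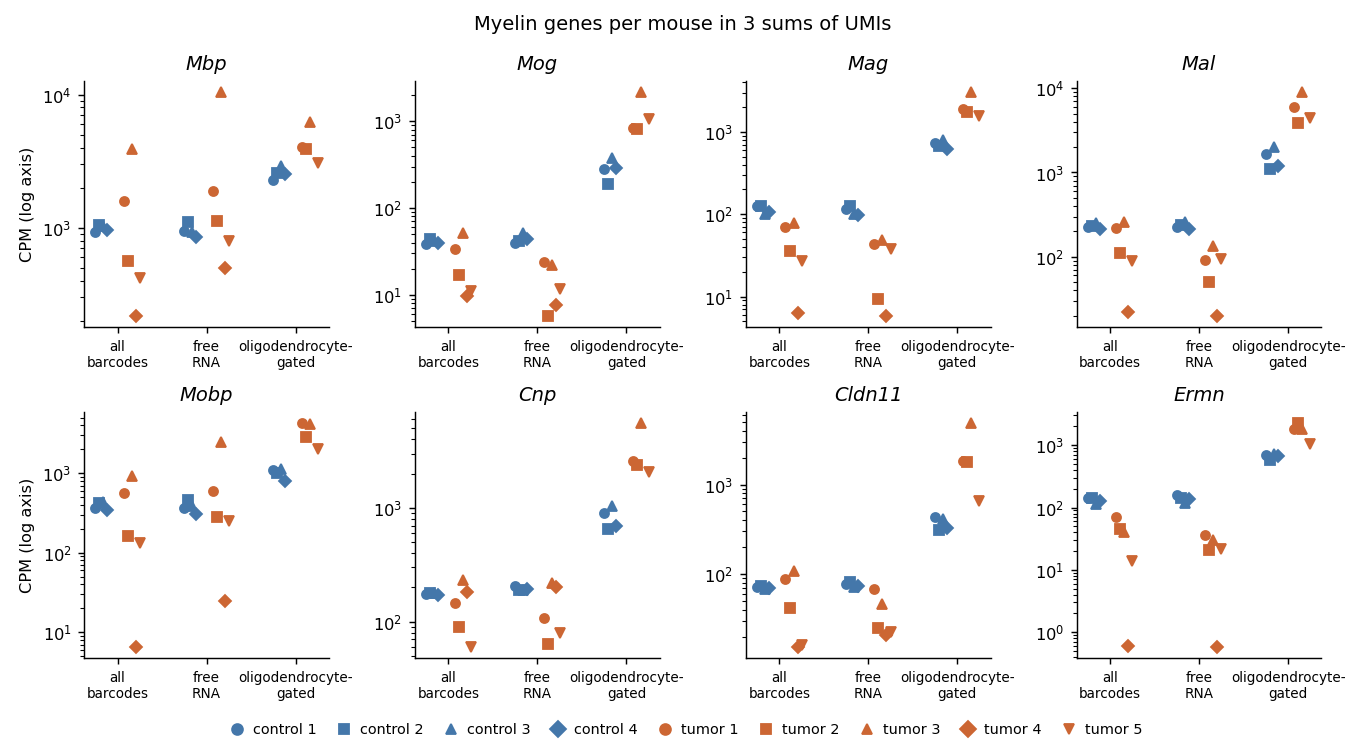
Level of each myelin gene in CPM (vertical axes, log scale) per mouse, in all barcodes, in the 3000 barcodes with the fewest UMIs (free RNA) and in oligodendrocyte-gated cells. Each point is 1 mouse, and tumor 4, with 5 gated cells, is left out of the last group. In free RNA the tumors lie below the controls for Ermn, Mag, Mog, Mal and Cldn11 but not for Mbp and Mobp, and in gated cells they lie above the controls for all 8 genes.

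The make-up of the myelin transcripts was also compared within each mouse, where the total level has no part. In free RNA, Mbp and Mobp together made up 61.4%, 65.5%, 62.5% and 60.4% of the UMIs of the 8 genes in the controls and 87.0%, 89.0%, 96.3%, 67.1% and 79.5% in the tumors. The rise lay in Mbp, whose own share was 44.1% to 46.3% in the controls and 60.5% to 77.6% in the tumors. Mobp alone made up 16.2% to 19.2% in the controls and 20.6%, 17.6%, 18.6%, 3.19% and 19.1% in the tumors, and the number of its UMIs per UMI of Mbp was 0.368 to 0.417 in the controls and 0.0500 to 0.315 in the tumors. In oligodendrocyte-gated cells the order was the opposite, 41.9% to 50.4% in the controls and 28.3% to 35.7% in the 4 tumors with enough cells. A control thus went from under 51% in gated cells to over 60% in free RNA, and tumor replicate 3 from 28.3% to 96.3%. The number of Mbp UMIs per Mag UMI ran from 8.06 to 9.23 in free RNA of the controls and was 43.9, 121, 216, 86.0 and 21 in that of the tumors. In gated cells it was 3.18 to 4.07 in the controls and 1.99 to 2.21 in the tumors. The number of Mobp UMIs per Mag UMI was 3.14 to 3.85 in free RNA of the controls and 13.6, 29.8, 52.0, 4.30 and 6.62 in that of the tumors.

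**Figure D2:**
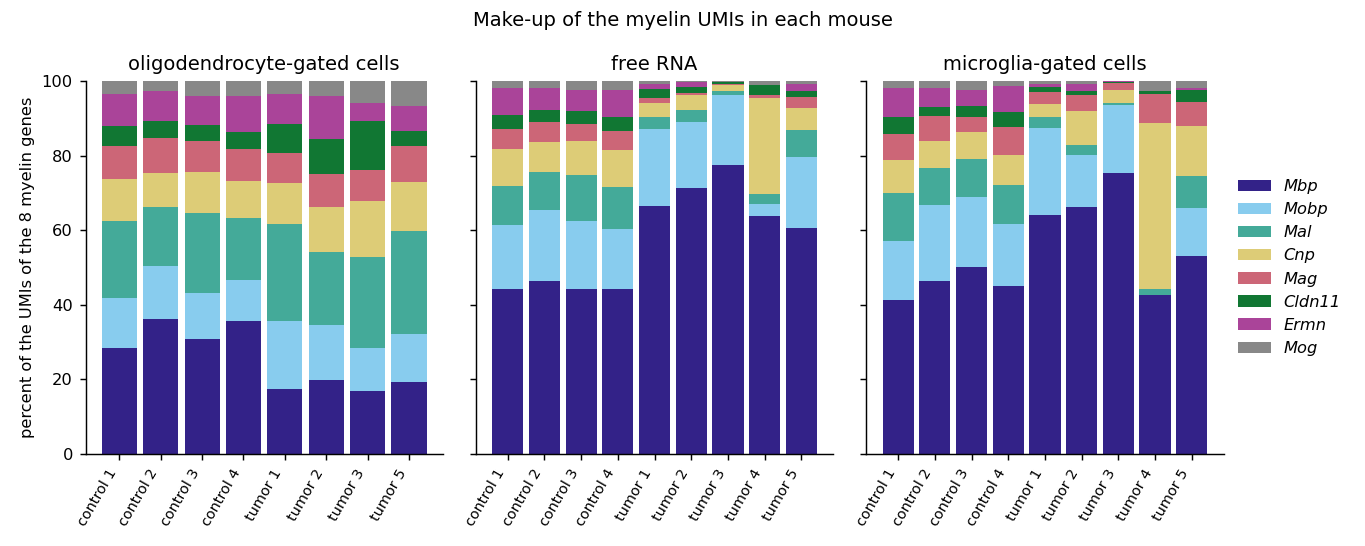
Percent of the UMIs of the 8 myelin genes that fell on each gene (stacked bars, vertical axis) per mouse, in oligodendrocyte-gated cells, free RNA and microglia-gated cells. Mbp and Mobp took 28.3% to 35.7% of gated cells' myelin UMIs and 67.1% to 96.3% of those of free RNA in tumors; tumor 4 had a large part of Cnp in free RNA (25.9%) and in microglia-gated cells (44.3%).

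Barcodes were also compared by depth. They were ranked by UMIs, and the free RNA barcodes were set against the 1000 barcodes with the most. In all 5 tumors Mbp was higher in free RNA than in the top barcodes, by 2.11, 5.78, 10.9, 3.14 and 6.47 times. In tumor replicate 3 it climbed from 952 CPM at a median of 5729 UMIs per barcode to 4941 CPM at 1242 UMIs, 8388 CPM at 746 UMIs and 10418 CPM at 559 UMIs. Mobp was higher in free RNA in 4 of 5 tumors, by 3.59 to 8.59 times, and at 0.924 times the top level in tumor replicate 1. Mag was higher in free RNA than in the top barcodes in 1 of 5 tumors, Mog in 1, Cnp, Cldn11 and Ermn in 2 and Mal in 3, with ratios of 0.115 to 2.94 over these 6 genes and all tumors. In tumor replicate 2 all 6 peaked not in the top barcodes but at ranks 1001 to 3000. There Mal was at 273 CPM and Ermn at 125 CPM, against 36.6 and 18.1 CPM in the top barcodes. In free RNA of this mouse they were at 49.9 and 20.8 CPM.

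In the controls the 8 genes kept step. Each was higher in free RNA than in the top barcodes in 4 of 4 controls, by 1.39 to 2.48 times. Malat1, a nuclear RNA, was 11.0% to 11.6% of the UMIs of the 1000 top barcodes of a control and 0.844% to 1.01% of the bin with the fewest UMIs. Barcodes of tumors did not start from such a level, with Malat1 at 1.30% to 3.95% in the top bin. These ratios are descriptions, and no test was run on them.

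**Figure D3:**
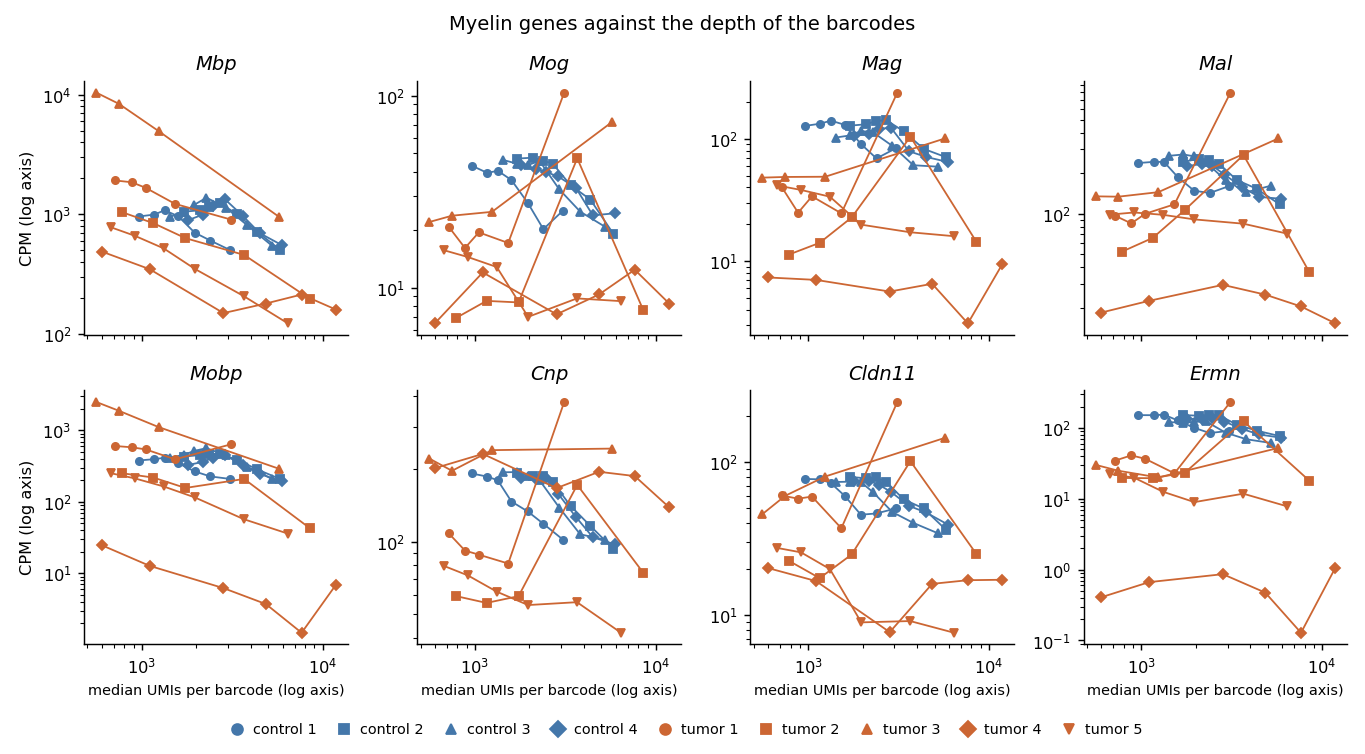
Level of each myelin gene in CPM (vertical axes, log scale) against the median UMIs per barcode (horizontal axes, log scale) in bins of barcodes ranked by UMIs, 1 line per mouse; bins under 1000 barcodes are left out. In tumors Mbp and, in 4 of 5 of them, Mobp are higher in free RNA than among the 1000 deepest barcodes. The other 6 genes are higher among the 1000 deepest barcodes than in free RNA in tumors 1 and 3. In tumor 5 these 6 are higher in free RNA, by 1.34 to 2.94 times. In controls Mbp is highest at a middle depth.

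Oligodendrocyte-gated cells were few. They numbered 56, 73, 40 and 69 in the controls and 108, 108, 23, 5 and 20 in the tumors, or 0.882%, 1.46%, 0.994% and 1.38% of kept cells against 4.59%, 3.53%, 1.34%, 0.0986% and 0.549%. The share was 1.18% ± 0.283 (SD, n = 4) in controls and 2.02% ± 1.95 (SD, n = 5) in tumors, and the difference of 0.843 percentage points did not pass (two-sided exact permutation test, p = 0.429). It was 0.200 points without tumor replicate 1 and 0.466 points without tumor replicate 2. The exact 95% interval of tumor replicate 4, 0.0320% to 0.230%, covers counting error alone. The share depends on the gate rule there, since a further 44 cells of this mouse passed the oligodendrocyte gate and another one without a lead and were set aside, against 3 to 9 in the other mice. This mouse was left out of the tests on gated cells because it had fewer than 10. The shares of the controls depend on the gate rule too. In controls 7, 156, 45 and 101 further barcodes had enough markers but too low a marker level against free RNA. In tumors these numbered 0, 0, 3, 4 and 0. Barcodes with 2 markers at a sufficient level numbered 84, 8, 8 and 18 in controls and 11, 16, 17, 148 and 23 in tumors.

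All 8 genes were higher in oligodendrocyte-gated cells of tumors than in those of controls. Mal was at 1670.5, 1114, 2006 and 1194 CPM in the controls and at 6043, 3838, 8978 and 4423 CPM in tumor replicates 1, 2, 3 and 5 (log2 fold change 2.10 ± 0.29 (SE), edgeR adjusted p = 1.29e-05). Cldn11 differed most, with 437, 314, 412 and 328 CPM against 1826, 1806, 4865 and 657 CPM (2.78 ± 0.52, edgeR adjusted p = 0.00175). Mbp differed least, with 2299, 2571, 2899.6 and 2533 CPM against 4058, 3909, 6236 and 3071 CPM (0.88 ± 0.24, edgeR adjusted p = 0.00603). The groups did not overlap for these 3 genes, and the share of all genes without overlap was not computed. The log2 fold changes of Mog, Cnp, Mobp, Mag and Ermn were 2.24, 2.08, 1.87, 1.69 and 1.55. Of the 4438 genes tested, 42.6% were called, 20.8% higher and 21.9% lower, and the median log2 fold change was 0.00 over all of them and 1.97 over the 8.

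The gated cells of the groups were not alike in what else they held. Summed neuron markers were at 6936, 4763, 5243 and 5312 CPM in the gated cells of the controls, close to the level of free RNA there, and at 961, 759, 250.4 and 417 CPM in those of the 4 tumors. In neuron-gated cells they were at 37133 to 39667 CPM in controls. Summed oligodendrocyte markers were at 1899 to 2649 CPM in gated cells of the controls, below the neuron markers there. In those of the 4 tumors the oligodendrocyte markers were at 2780 to 5518 CPM. Malat1 was at 61458 to 75827 CPM in gated cells of controls and at 30796 to 60829 CPM in those of the 4 tumors. Cells that carried the least number of markers the gate allows, 3, were more frequent in controls, at 34.2% to 62.5% of gated cells, than in the 4 tumors, at 8.33% to 15.0%. With 1 more marker required, 8 of 8 genes were still called higher. The gate asked for markers at 4 times their level in free RNA, which was 243 to 287 CPM for the summed oligodendrocyte markers in the controls and 40.0 to 119 CPM in the tumors, so its bar was higher in the controls. The part of free RNA within the cells in the difference was not tested.

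Single gated cells showed the same order. A UMI of Mog was found in 45.0% of 238 control cells (exact 95% interval 38.5% to 51.5%) and in 92.0% of 264 tumor cells (88.1% to 95.01%), at a median of 3243.5 and 3893 UMIs per cell. With each cell thinned to 1000 UMIs the shares were 13.9% and 54.5%, and no cell was left out. Mbp was found in 97.1% and 99.6% of the cells, and thinned in 86.6% and 95.8%. For comparison, Mbp had a UMI in 75.3% of neuron-gated cells of controls (3660.0 UMIs per cell) and in 61.9% of those of tumors (2032 UMIs). Whether these UMIs came from the cells or from free RNA was not tested. Thinned, these shares were 36.1% and 43.2%, the opposite order, so the presence of an Mbp UMI did not mark a cell type. Ermn had a UMI in 20.1% of neuron-gated cells in controls and 2.15% in tumors, against 66.4% and 95.1% of oligodendrocyte-gated cells. Intervals are over cells and not over mice. The 264 cells of tumors included 108 each of tumor replicates 1 and 2 and the 5 of tumor replicate 4. Mouse by mouse, a gated cell held a median of 4, 6, 6 and 6 of the 8 genes in the controls. In tumor replicates 1, 2, 3 and 5 that median was 8.

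In a fit that set free RNA against gated cells of the same mouse, all 8 genes were lower in free RNA, by unequal amounts. The cells were gated for other genes of the same lineage, which makes a lower level in free RNA part of their choice, and the sizes are what was compared. The log2 fold change of free RNA against gated cells was smallest for Mbp (-1.14 ± 0.22 (SE), edgeR adjusted p = 0.00148) and Mobp (-1.83 ± 0.27, edgeR adjusted p = 0.000168). For Cnp, Cldn11, Ermn, Mag, Mal and Mog it was -3.31, -3.78, -3.95, -4.16, -4.18 and -4.28. All 8 were called lower, where 12.6% of the 11064 genes tested were called lower, 19.8% higher and 32.3% in either direction, and the median was -3.86 over the 8 genes and 0.16 over all genes. These values are for tumors and controls in 1 fit with the mouse as a block. With the mouse left out of the model Mbp was no longer called (-0.78, edgeR adjusted p = 0.155).

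The gap was wider in tumors for 6 of the 8 genes. Gated cells had 46.5 to 76.9 times the Mal level of free RNA in the 4 tumors and 4.62 to 7.86 times in the controls. For Mag these ratios were 41.0 to 189 and 5.34 to 7.84, for Ermn 48.6 to 109 and 4.09 to 6.18, and for Cnp 23.9 to 37.5 and 3.42 to 5.41. For Mbp they were 2.13, 3.46, 0.599 and 3.89 in tumor replicates 1, 2, 3 and 5 and 2.33 to 3.13 in the controls, so the groups overlapped, and in tumor replicate 3 free RNA held more Mbp than the gated cells did. For Mobp the ratios were 7.25, 10.3, 1.68 and 8.12 against 2.21 to 3.02.

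The test of this difference between the groups, an interaction of group and compartment in edgeR, called Ermn, Mog, Cldn11, Mal, Mag and Cnp, with log2 differences of -3.74 ± 0.26 (SE), -3.63 ± 0.29, -3.42 ± 0.36, -3.35 ± 0.25, -3.31 ± 0.30 and -2.76 ± 0.25. The edgeR adjusted p of these 6 genes ran from 8.19e-27 for Ermn to 4.39e-08 for Cldn11, and the largest over the alternatives was 0.00246, for Cldn11. These values rest on 4 tumors and 4 controls, and this fit was not among those tested on simulated data, so their size should not be read closely. Mbp (0.37 ± 0.54, edgeR adjusted p = 0.656) and Mobp (-1.12 ± 0.53, edgeR adjusted p = 0.16) were not called. Of the 11064 genes, 8.55% were called lower, 20.1% higher and 28.7% in either direction. Mobp was called without tumor replicate 3 (-1.67, edgeR adjusted p = 5.44e-12), without tumor replicate 2 (-0.79, edgeR adjusted p = 0.0219) and without control replicate 2, 3 or 4 (edgeR adjusted p = 0.000954 to 0.0117), and without tumor replicate 3 Mbp changed sign (-0.16, edgeR adjusted p = 0.611). This result uses the same free RNA and gated cells as the comparisons above. The gated cells of the groups differed in neuron markers. The summed markers of the oligodendrocyte gate itself also lay further apart in tumors. In controls they were at 1899 to 2649 CPM in gated cells and 243 to 287 CPM in free RNA. In the 4 tumors they were at 2780 to 5518 CPM and 40.0 to 119 CPM. A wider gap is thus not particular to these 6 genes. The part of the gate and of the neuron markers in this result was not tested.

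Along the oligodendrocyte lineage the genes differed in the gates that held them. In OPC-gated cells of tumors Ermn had 0 UMIs in 417 cells, which allows a level of up to 52.3, 7.75, 18.8, 2.26 and 14.5 CPM in tumor replicates 1 to 5, and a share of cells with a UMI of up to 0.881% by the exact interval. Cnp was already present there, at 139, 106, 382, 260.5 and 86.8 CPM, 1.10 to 1.73 times its level in free RNA, in 5 of 5 tumors. Mbp in the same cells was at 383, 163, 1403, 55.9 and 125 CPM, or 0.112 to 0.202 times free RNA. In OPC-gated cells of controls Mbp was at 689 to 1068 CPM, 0.813 to 0.968 times free RNA, and Ermn at 165, 108, 45.8 and 18.1 CPM, or 1.06, 0.771, 0.394 and 0.130 times free RNA.

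Committed-precursor-gated cells, defined by genes such as Gpr17, Enpp6 and Bmp4, were mostly those of tumor replicate 4, with 152 of the 187 cells of tumors. In that mouse Mbp was at 4373 CPM, Cnp at 2863 CPM, Cldn11 at 382 CPM, Mog at 256 CPM and Mal at 110.2 CPM, while Mobp was at 4.92 CPM and Ermn had 0 UMIs, a level of up to 2.95 CPM. Free RNA of the same mouse held 500.2 CPM of Mbp and 203 CPM of Cnp. The 20 such cells of tumor replicate 3 held 8524 CPM of Mbp, 3649 CPM of Cnp and 373 CPM of Mobp, with 0 UMIs of Ermn again (up to 40.0 CPM). Against free RNA of that mouse Mbp was at 0.819 times and Mobp at 0.149 times, while Cnp was at 16.5 times, and these cells also held 3503 CPM of summed erythroid markers and 866 CPM of neuron markers. Over the tumors, Ermn had a UMI in 0 of 187 committed-precursor-gated cells and in 95.1% of 264 oligodendrocyte-gated cells, and Cnp in 96.3% and 98.5%. In the cells of tumor replicate 4 the summed markers of the committed precursor were at 6459.6 CPM, those of OPCs at 1159.7 CPM, of oligodendrocytes at 899 CPM, of ependymal cells at 441 CPM, of microglia at 383 CPM, of astrocytes at 359 CPM and of neurons at 125.9 CPM. The part of these other markers was not tested. The 5 oligodendrocyte-gated cells of this mouse were too few to complete the series. Controls had 4 to 12 committed-precursor-gated cells, with neuron markers at 6244 and 4514 CPM in the 2 controls with 10 or more.

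**Figure D4:**
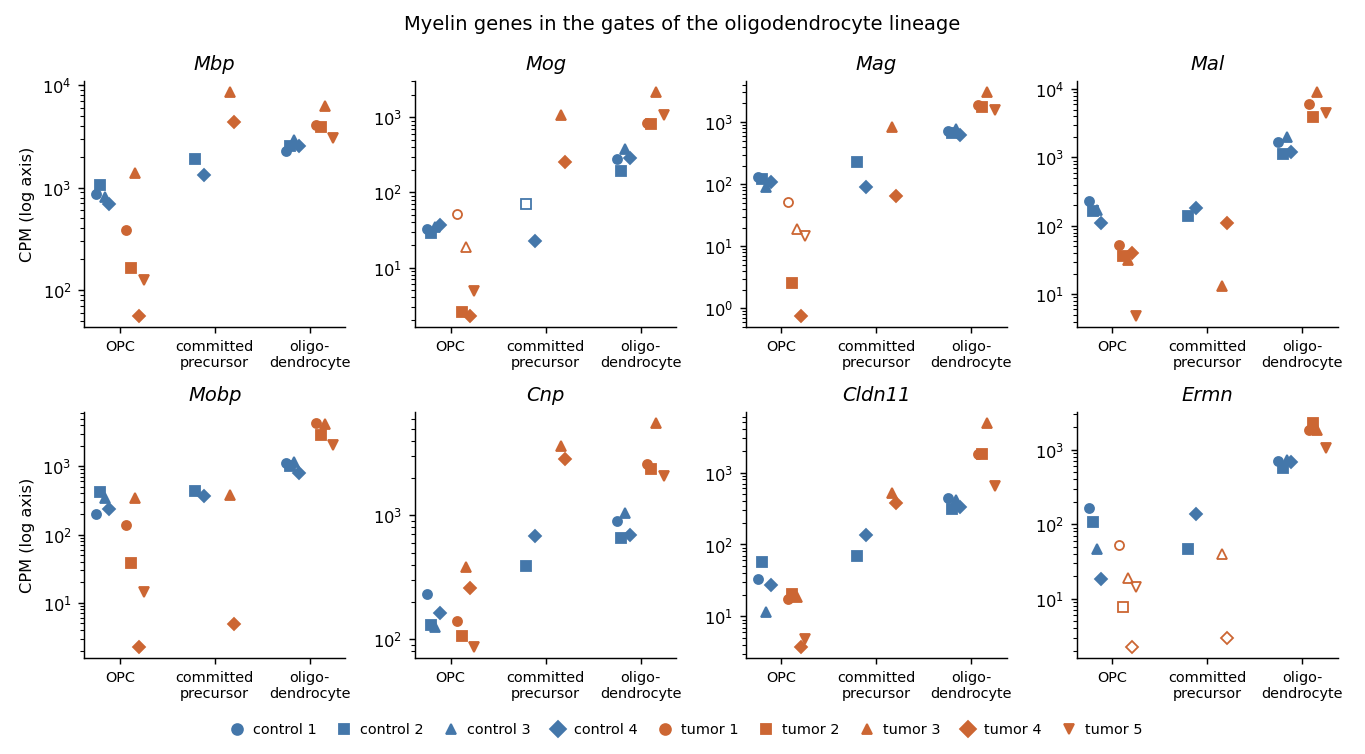
Level of each myelin gene in CPM (vertical axes, log scale) per mouse in OPC-gated, committed-precursor-gated and oligodendrocyte-gated cells of mice with at least 10 such cells. Open symbols stand at the level that 3 UMIs would give where no UMI was counted. In tumors Cnp is at 2863 CPM or more in committed precursors while Ermn has no UMI before the oligodendrocyte gate.

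In microglia, brain macrophages that make no myelin, most of the 8 genes lay below free RNA of the same mouse, and 6 were lower in tumors than in controls. Mal was at 207, 167, 159.8 and 144 CPM in microglia-gated cells of the controls and at 28.2, 8.41, 8.92, 2.46 and 23.7 CPM in those of the tumors (log2 fold change -3.31 ± 0.45 (SE), edgeR adjusted p = 0.000266). Ermn was at 67.8 to 127 CPM against 8.91, 5.94, 2.38, 0 and 1.48 CPM (-4.37 ± 0.51, edgeR adjusted p = 0.000101), where the fold depends on how a count of 0 is treated. Mal, Ermn, Cldn11, Mog, Mag and Cnp were called lower, 6 of 8, where 23.8% of the 8576 genes tested were (20.7% were called higher and 44.5% in either direction), and for each of these 6 all tumors were below all controls. The share of all genes without overlap was not computed here either. Mbp was at 628 to 782 CPM against 628, 217, 1009, 60.3 and 149 CPM and was not called (-0.46 ± 0.62, edgeR adjusted p = 0.586), and neither was Mobp (-1.04 ± 0.91, edgeR adjusted p = 0.381). With 1 mouse left out the value of Mbp ran from -1.01 (without tumor replicate 3) to -0.18 (without tumor replicate 4).

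Against free RNA of the same mouse, which also served the other comparisons with free RNA, microglia-gated cells were lower for 7 of 8 genes, with log2 fold changes of -1.05 to -1.56, where 30.6% of 12771 genes were called lower, 24.8% higher and 55.4% in either direction. Cnp, for example, was at 0.581 to 0.670 times the free level in controls and 0.202 to 0.477 times in tumors. Mag was the exception (-0.16 ± 0.21, edgeR adjusted p = 0.53). Its level in microglia-gated cells was 0.627 to 1.07 times that of free RNA in the controls and 0.720, 1.48, 0.543, 1.90 and 0.492 times in the tumors. In tumor replicates 2 and 4, where it was above free RNA, Mag was at 13.9 and 11.1 CPM in microglia-gated cells and at 9.35 and 5.82 CPM in free RNA. These levels rest on few UMIs. The 4089 barcodes with the fewest UMIs of tumor replicate 4, which include its free RNA, held 18 UMIs of Mag. Mag also stood out in the make-up, with 20.1, 15.6, 38.6, 5.44 and 8.08 UMIs of Mbp per UMI of Mag in microglia-gated cells of the tumors, against 21 to 216 in free RNA. Summed oligodendrocyte markers in microglia-gated cells were at 121 to 219.5 CPM in controls and 7.99 to 26.7 CPM in tumors. Summed neuron markers did not overlap between the groups either, at 4346 to 5110.1 CPM in controls and 1627, 754, 436, 119 and 613 CPM in tumors. The part of these markers in the differences was not tested.

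Mal parted from the other genes in endothelial cells, which line blood vessels. This comparison was added after seeing the data. Endothelial-gated cells held Mal at 863, 621, 1122, 318 and 710.0 CPM in the tumors, or 7.46 to 16.1 times the level of free RNA of the same mouse. In controls they held 433, 279, 356 and 287 CPM, 1.16 to 1.92 times the level of free RNA. Mal was thus above free RNA in 9 of 9 mice (log2 fold change 1.95 ± 0.57 (SE), edgeR adjusted p = 0.0141), and the call ended without tumor replicate 1 (1.71, edgeR adjusted p = 0.0525), without tumor replicate 3 (1.77, edgeR adjusted p = 0.0722) and with no filter on low counts (1.91, edgeR adjusted p = 0.0581). The other 7 genes were lower than in free RNA, with log2 fold changes of -1.70 to -2.18. Of the 12386 genes tested, 15.7% were called higher, 29.2% lower and 44.9% in either direction.

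A UMI of Mal was found in 67.2% of 692 endothelial-gated cells of tumors (exact 95% interval 63.6% to 70.7%; median 3324 UMIs per cell), in 6.14% of neuron-gated cells (4.87% to 7.61%; 2032 UMIs) and in 4.87% of microglia-gated cells (3.85% to 6.06%; 3970.0 UMIs). Thinned to 1000 UMIs the shares were 41.3%, 3.76% and 1.56%, with 0, 4 and 0 cells left out. The ratio of Mal to Mbp differed too, since Mal made up 50.9%, 70.8%, 39.8%, 82.0% and 72.2% of the myelin UMIs of endothelial-gated cells in tumors and 3.19%, 3.15%, 1.00%, 2.53% and 7.28% of those of free RNA. Summed oligodendrocyte markers in the same cells were at 46.4, 4.86, 13.7, 5.28 and 6.51 CPM, against 40.0 to 119 CPM in the free RNA barcodes, and 3 to 8 of the 10 markers were at 0. The endothelial-gated cells of the controls carried more neuron markers, 2275 to 5350.4 CPM, than those of the tumors, 62.3 to 1219 CPM. The difference between the groups was not tested.

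Cnp stood apart in astrocyte-gated cells of tumors, a comparison likewise added after seeing the data. It was at 129.6, 122, 211, 238 and 141 CPM in the tumors, 1.20, 1.92, 0.956, 1.17 and 1.78 times the level of free RNA, and at 0.535 to 0.877 times in the controls. In the controls Mbp was at 0.936, 0.720, 1.44 and 1.16 times free RNA and Mobp at 0.794 to 1.49 times, so Cnp did not stand apart there. In the fit over both groups Cnp was not called (log2 fold change -0.14 ± 0.21 (SE), edgeR adjusted p = 0.642). The other 7 genes were called lower than in free RNA, with values of -1.18 to -1.72. Of 11872 genes, 23.1% were called lower, 13.7% higher and 36.7% in either direction. Mbp and Mobp lost their calls with library size alone as the scale (edgeR adjusted p = 0.0662 and 0.0738), and Mbp also without tumor replicate 3 or 4 (edgeR adjusted p = 0.0791 and 0.0525). In ependymal-gated cells, the ciliated cells that line the ventricles, Cnp was at 202, 102 and 97.9 CPM in the 3 tumors with at least 10 such cells, 1.24 to 1.86 times free RNA, with Mbp at 0.106 to 0.285 times. In the 1 control with 10 or more, control replicate 3, Cnp had fewer UMIs than the floor of 3 counts (27.1 CPM, 0.142 times free RNA). Cnp overlaps Dnajc7 on the opposite strand, as Ermn does Galnt5, and the strand setting of the counting was not given in the sources used here.

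**Figure D5:**
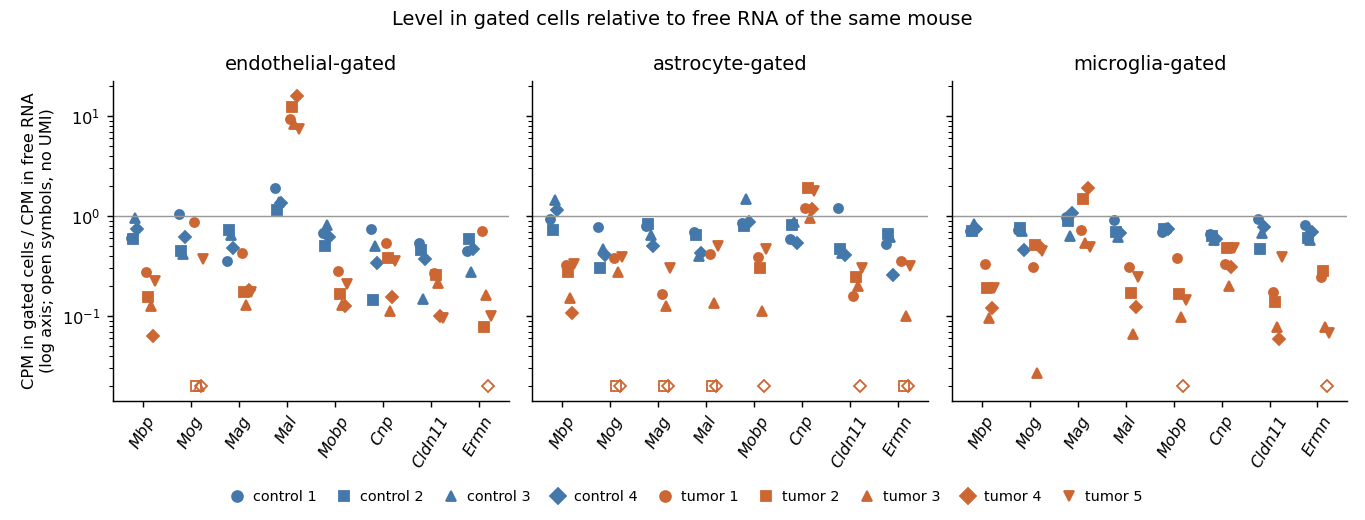
Level of each myelin gene in endothelial-, astrocyte- and microglia-gated cells divided by its level in free RNA of the same mouse (vertical axis, log scale; the line marks equal levels), 1 point per mouse. Open symbols at the bottom mark genes without a UMI. Mal in endothelial-gated cells of tumors stands at 7.46 to 16.1 times free RNA, and Cnp in astrocyte-gated cells of tumors at 0.956 to 1.92 times.

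Of 25 further genes of the myelin program, written from general knowledge with earlier results of these data known, 9 were lower and 3 higher in tumors over all barcodes, where 21% and 28.8% of all genes were, and 24 were tested in free RNA. There 13 were lower in tumors, where 19.4% of all genes were, Opalin (a membrane protein of mature oligodendrocytes) most clearly (log2 fold change -3.84 ± 0.34 (SE), edgeR adjusted p = 0.000201), and 3 were higher. Those 3 were Mpzl1, Cd9 and Sirt2 (1.98, 1.24 and 0.99), which many cell types express. The median was -1.20, against 0.06 over all genes. In oligodendrocyte-gated cells 15 of 24 were higher in tumors and 0 lower, where 20.8% of all genes were higher and 21.9% lower, among them Trf, which encodes transferrin (2.21, edgeR adjusted p = 2.37e-06). In the interaction of group and compartment 20 of 25 were called lower and 1 higher (Mpzl1, 1.50, edgeR adjusted p = 0.0208), where 8.55% of all genes were called lower and 20.1% higher.

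Of 14 regulators of the lineage 13 were tested in free RNA, and 4 were higher in tumors and 1 lower. The share called higher is near the 25.7% of all genes, and 19.4% of all genes were lower. Sox8 and Olig1, transcription factors of the whole lineage, rose (log2 fold changes of 2.52 and 2.40, edgeR adjusted p = 0.00517 and 0.00557), as did Itpr2, a calcium channel gene and marker of the committed precursor gate (1.83, edgeR adjusted p = 0.000799), while Myrf, the factor that switches on myelin genes, fell (-0.71, edgeR adjusted p = 0.0406). In oligodendrocyte-gated cells 7 of the 10 regulators tested were higher in tumors and 1 lower, with a median of 1.13, where 20.8% of all genes were higher and 21.9% lower. Myrf was among the higher ones (1.18, edgeR adjusted p = 0.000473), and the lower one was Zeb2, a transcription factor (-0.61, edgeR adjusted p = 0.0204).

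Among the genes whose level was most like the sum of the 8 over 101 sums of mouse and compartment with at least 10 barcodes were Ppp1r16b (Pearson's r = 0.795), Tmem88b (0.752), Fa2h (0.727) and Qdpr (0.719), out of 12348 genes compared. Tmem88b and Fa2h are markers of the oligodendrocyte gate. The sums share libraries, so these values are descriptions. Among the 8 genes themselves Mbp was most like Mobp (r = 0.843) and Mag most like Cldn11 (0.838), and the least alike were Mobp and Cnp (0.393).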

How the data were processed

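Droplet RNA of 5 tumor and 4 control mouse brains was measured, 1 library per mouse. The tissue was dissociated, cleared of debris on a density gradient, stained with DAPI and anti-Ter119 and sorted. The deposited UMI counts per gene and barcode were made by the authors with Cell Ranger (6.1.2 in the matrix header, 7 in the submitters' processing notes) on mm10, and the notes also name Scanpy 1.8.2. The study's own later quality control limited genes per cell and mitochondrial reads and removed doublets, but which filter chose the barcodes of the deposited matrices was not given in the sources used here. The barcode list of control replicate 4 had 80865 entries for 80887 columns, so its barcodes were left out of the sharing count.

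Kept cells came from the 10000 barcodes with the most UMIs, had 200 to 6000 genes, passed a mixture of 2 components on mitochondrial percent and gene number (scikit-learn 1.9.0), and were not called doublets by Scrublet (Scanpy 1.11.5; 0.8% per 1000 barcodes). Tumor replicate 3 had only 9001 barcodes, so all of them were considered, but none of its free RNA barcodes was a kept cell. A gate needed 3 distinct markers and 4 times the marker UMIs that the library's free RNA gives; where several of the 17 gates passed, the best had to lead by 2 times. No gate used any of the 8 genes. Counts were summed per mouse and tested with edgeR 4.0.16 (quasi-likelihood, TMM, filterByExpr, Benjamini-Hochberg, threshold 0.05) in R 4.3.3, needing 10 cells per mouse, with the mouse as a block between compartments. The SE of an edgeR log2 fold change was derived from its test, as the absolute fold change divided by the square root of the F statistic. A mouse without any UMI of a gene had a floor of 3 counts. Exact 95% intervals and floors cover counting error only.

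Alternatives used DESeq2 1.42.0, limma 3.58.1, other scalings, filters, gates and free RNA sets, and left out each mouse. Tested on simulated data in which 200 genes carried a log2 change of 1.5, the fit recovered 33.5% over all barcodes (19464 genes), 69% in free RNA (11835 genes), 86% in oligodendrocyte-gated cells (4438 genes) and 76.5% between free RNA and gated cells (11064 genes). Of the calls made there, 2.9%, 4.83%, 7.03% and 3.16%, in the same order, were false, above the threshold of 5% in oligodendrocyte-gated cells. The 8 genes, the lists, the gates and the rule were chosen with earlier results of these data known. Named were the 8 genes and of each list at most 3 genes per direction with the smallest p. A further gene of the rule is not reported here. The endothelial and astrocyte comparisons were added after seeing the data.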

Additional observations from a re-analysis of the deposited data

Results flagged for a closer look

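In 80 groups of 4 or 5 mice tested for a mouse far from the others, 7 held one. The nominal rate of about 1 in 20 is for independent groups of normally distributed values. These groups share mice and related genes, so the count cannot be set against that rate. Tumor replicate 3 stood apart in free RNA, with Mbp at 10413 CPM (the next tumor had 1901 CPM) and Mobp at 2502 CPM (next 591 CPM), and in oligodendrocyte-gated cells, with Cnp at 5552 CPM (next 2591 CPM). Control replicate 1 had Cnp at 208 CPM in free RNA (next 193 CPM). Endothelial-gated cells of tumor replicate 1 had Mog at 20.9 CPM (next 4.34 CPM), Cnp at 58.0 CPM (next 31.7 CPM) and Ermn at 25.5 CPM (next 4.97 CPM), in the tumor whose endothelial-gated cells also held the most summed oligodendrocyte markers, 46.4 CPM. The part of those markers was not tested.

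The log2 fold change of free RNA against oligodendrocyte-gated cells differed between tumors and controls, by edgeR's interaction test, for Ermn (-3.74), Mog (-3.63), Cldn11 (-3.42), Mal (-3.35), Mag (-3.31) and Cnp (-2.76).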

How the results depend on the processing

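Over 72 results of single genes, 1373 of 1431 alternatives kept the direction and the side of the threshold, 23 gained a call, 17 lost one and 18 changed sign. The count of genes called over all barcodes, 0 in edgeR, was 2 with DESeq2, 3 with limma voom, 1 with DESeq2's size factors, 1 with no filter on low counts and 0 to 2 with 1 mouse left out (1 without tumor replicate 1, 2 without tumor replicate 3 and 2 without tumor replicate 4). Over kept cells only, the log2 values turned to 0.11 for Mobp, 0.76 for Mog, 0.88 for Mal, 0.97 for Cnp and 1.08 for Cldn11, and stood at -0.0089 for Mag and -0.38 for Ermn. Over all barcodes Mbp turned to -0.21 with voom and -0.54 without tumor replicate 3, and Mobp to 0.15 without tumor replicate 4 and 0.031 without tumor replicate 5. In free RNA Mobp turned to -0.39 both without tumor replicate 3 and under voom. Under a 10% mitochondrial limit, Mbp turned to 0.34 in microglia-gated cells and Mag to 0.044 against free RNA. In the interaction Mbp turned to -0.042 with no filter and -0.16 without tumor replicate 3, and Mobp was called with DESeq2 (-1.23, adjusted p = 0.0351), no filter (-1.54), 1 more marker (-0.87) and the limit of 10% (-1.37). Cnp in astrocyte-gated cells turned to 0.029 with library size alone. With 1 mouse left out, Mbp ran from -0.54 to 0.67 and Mobp from -0.90 to 0.15 over all barcodes, Mobp from -0.39 to 1.20 in free RNA and Mbp from -0.16 to 0.67 in the interaction. The difference in the share of oligodendrocyte-gated cells ran from 0.200 to 1.32 percentage points. The causes were not tested. The endothelial comparison could not be fitted with the limit of 10%, which left too few mice.

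Replicate numbers are shared between groups in the labels, but same-numbered mice did not deviate together (r of 0.170, -0.105, -0.0811 and 0.0578 over 10092 genes), and 1 of 4 controls correlated best with its own number. With the replicate number as a block, Mbp over all barcodes turned to -0.079 and Mobp in free RNA to -0.14, and no count of calls moved by over 1.5 times. Between compartments the block was the mouse. Without it Mbp in free RNA against oligodendrocyte-gated cells (-0.78), Mobp in microglia-gated cells (-1.63), and Mbp (-1.49) and Mobp (-1.46) in astrocyte-gated cells were no longer called (edgeR adjusted p = 0.155, 0.0719, 0.105 and 0.144).

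The gated cells were few, 5 to 108 oligodendrocytes a mouse, and free RNA barcodes hold whatever the authors' filter left.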
